A study of Mus musculus with 82 samples.

Results

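The nuclear genes for the subunits of the mitochondrial respiratory chain and ATP synthase were followed in mouse skin after whole-body irradiation. A gene was a member if its symbol begins with Ndufa, Ndufb, Ndufc, Ndufs, Ndufv, Uqcr, Cox4i, Cox5, Cox6, Cox7, Cox8 or Atp5. Sdha, Sdhb, Sdhc, Sdhd and Cyc1 were members as well. This rule uses the symbol alone, but it was set with earlier results of these data known. Of 18690 genes with a named probe on the array, 92 were members, with 116 probes, and the probe of highest mean log2 intensity stood for a gene with several. They comprised 36 genes of complex I, 4 of complex II, 9 of complex III, 19 of complex IV, 17 of complex V and 7 complex I assembly factors, Ndufaf1 to Ndufaf7, which carry the same prefix. Ndufa4, whose protein belongs to complex IV, and Cox7a2l were counted with that complex.

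Skin biopsies of male C57BL/6j mice were taken repeatedly from the same animals at h2, d4, d7, d21 and d28 after sham treatment (0 Gy) or after 1, 3, 6 or 20 Gy of X-rays from a linear accelerator, given under ketamine and xylazine. Mice were bought at 8 weeks of age, sham mice were transported without being irradiated, and mice of the 20 Gy group were euthanized by d7, so that this dose has no later time point (TP). Cy5-labeled biopsy RNA was hybridized against universal mouse reference RNA in Cy3, on 82 arrays of 24 mice in 23 groups of dose and TP. From h2 to d28 the sham group had 4, 4, 4, 2 and 2 arrays, the 1 Gy group 4, 4, 2, 4 and 4, the 3 Gy group 5, 5, 3, 4 and 3, the 6 Gy group 4, 4, 2, 3 and 4, and the 20 Gy group 4, 4 and 3 up to d7. All values below are log2 ratios of biopsy over reference, or differences of such ratios between groups, and every irradiated group of a TP was compared with the same sham arrays. A biopsy holds many cell types, so that fewer cells of a type and less RNA per cell cannot be told apart.

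The respiratory chain passes electrons from NADH (complex I) and succinate (complex II) through ubiquinone to complex III, cytochrome c and complex IV, and the proton gradient made on the way drives ATP synthase, complex V. Each complex except complex II joins a few subunits encoded in mitochondrial DNA with many encoded in the nucleus, and complex I has catalytic core subunits, which hold the flavin and the iron-sulfur clusters, and smaller accessory subunits around them. In the skin the chain is active in the keratinocytes of the basal epidermis, hair follicles and sebaceous glands, and in the cutaneous muscle that lies under the dermis. Nuclear factors known from work on promoters of these genes, NRF1, the ETS protein GABP and YY1, bind short motifs near their starts.

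Those motifs were looked for in the RefSeq promoters (GRCm38.p6) of 75 members that matched by symbol, in a window of 250 bases before to 50 bases after the start and on both strands. The NRF1 core GCATGCG was found in 12 members (16%) and in 3.64% of all 27025 genes with a promoter of the same length. The ETS core CCGGAAG was found in 17 members (22.7%) and in 9.12% of all genes, and the YY1 core AAGATGG in 10 members (13.3%) and in 6.48% of all genes. The AAG that ends the ETS core also opens the YY1 core, so that matches of the pair can overlap, and the NRF1 core overlaps its own reverse complement, as it does in Atp5g2. A match describes the letters only. The letters were set after a first search had been seen, and all genes were not matched to the members in base composition. The shares are thus no test of the members against all genes. The 150 bases before the start are shown for 6 members that carry a core there and whose transcripts passed the test in at least 1 comparison below, 4 of them at d7 (Ndufb7, Uqcr11, Sdhd and Atp5h), with the NRF1 core (Atp5g2) or the ETS core (the other five, in either orientation) in capitals.
Atp5g2, chr15:102671048-102671197, minus strand: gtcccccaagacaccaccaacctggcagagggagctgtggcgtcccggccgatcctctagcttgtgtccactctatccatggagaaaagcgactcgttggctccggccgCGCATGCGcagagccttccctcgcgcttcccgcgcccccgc
Cox6a1, chr5:115348959-115349108, minus strand: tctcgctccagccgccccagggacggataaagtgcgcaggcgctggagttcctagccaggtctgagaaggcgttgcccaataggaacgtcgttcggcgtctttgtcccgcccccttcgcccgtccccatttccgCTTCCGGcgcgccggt
Ndufb7, chr8:83566608-83566757, plus strand: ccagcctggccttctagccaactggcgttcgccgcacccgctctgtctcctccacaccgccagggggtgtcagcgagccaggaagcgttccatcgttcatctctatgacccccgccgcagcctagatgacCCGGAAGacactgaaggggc
Uqcr11, chr10:80406822-80406971, minus strand: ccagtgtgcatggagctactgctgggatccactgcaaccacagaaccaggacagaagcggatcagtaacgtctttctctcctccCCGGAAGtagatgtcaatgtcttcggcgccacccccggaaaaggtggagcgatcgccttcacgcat
Sdhd, chr9:50603850-50603999, minus strand: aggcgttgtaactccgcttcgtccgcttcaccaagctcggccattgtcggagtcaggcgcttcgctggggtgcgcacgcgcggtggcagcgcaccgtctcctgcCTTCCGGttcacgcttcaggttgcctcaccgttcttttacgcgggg
Atp5h, chr11:115419920-115420069, minus strand: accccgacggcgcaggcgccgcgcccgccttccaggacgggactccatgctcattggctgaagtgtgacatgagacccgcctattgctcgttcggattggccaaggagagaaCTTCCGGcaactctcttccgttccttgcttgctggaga

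Of the 92 members, 89 passed the filter on dim probes (a group had to have its Cy5 signal well above background on no fewer than 50% of its arrays), and 85 were well above background on all 82 arrays. The other three were Cox4i2 (lung), Cox7b2 and Cox8c (testis), isoforms known from those organs, which were well above background on 4, 1 and 1 of the 82 arrays. No member was saturated on any array. Arrays had been read on 2 scanners. Scanner 1 read all 11 arrays of 20 Gy, 8 of the 16 sham arrays (3 of h2, 3 of d4, 2 of d7) and 1 array each of 1, 3 and 6 Gy at h2 and at d4, and scanner 2 read the other 57. On scanner 1 the median Cy5 intensity of an array lay between 22 and 78, against 63 to 118 on scanner 2. Each comparison of 20 Gy with sham is therefore also given within scanner 1. Of the markers of epidermis, 10 of 11 had a tested probe, as did all 18 of skeletal muscle, whose mean level in sham arrays of h2 was between 4.40 and 5.92. Skin biopsies thus held muscle as well as epidermis.

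At d7 after the lethal exposure the respiratory chain transcripts were lower as a group. Of the 89 members, 19 (21.3%) fell and 0 rose at an adjusted p under 0.05 (limma with Benjamini-Hochberg adjustment over 30294 probes), against 1.1% of all probes tested that fell and 3.34% that rose. At an unadjusted p under 0.05 there were 44 members lower and 0 higher, against 4.22% of all probes lower and 8.44% higher. The median change over the members was -0.68 and over all probes 0.02, and 81 members were below 0. In 33 members all 3 arrays of 20 Gy lay below all sham arrays of d7 that measured them, and in 0 members above, where 6.84% of all probes lay below in this way and 9.91% above. The median level over the members was -0.04, -0.23 and -0.18 on the 20 Gy arrays (mice M022, M023 and M024) and 0.19, 0.26, 0.35 and 1.05 on the sham arrays (M001, M005, M003 and M002), so that the groups did not overlap.

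**Figure D1:**
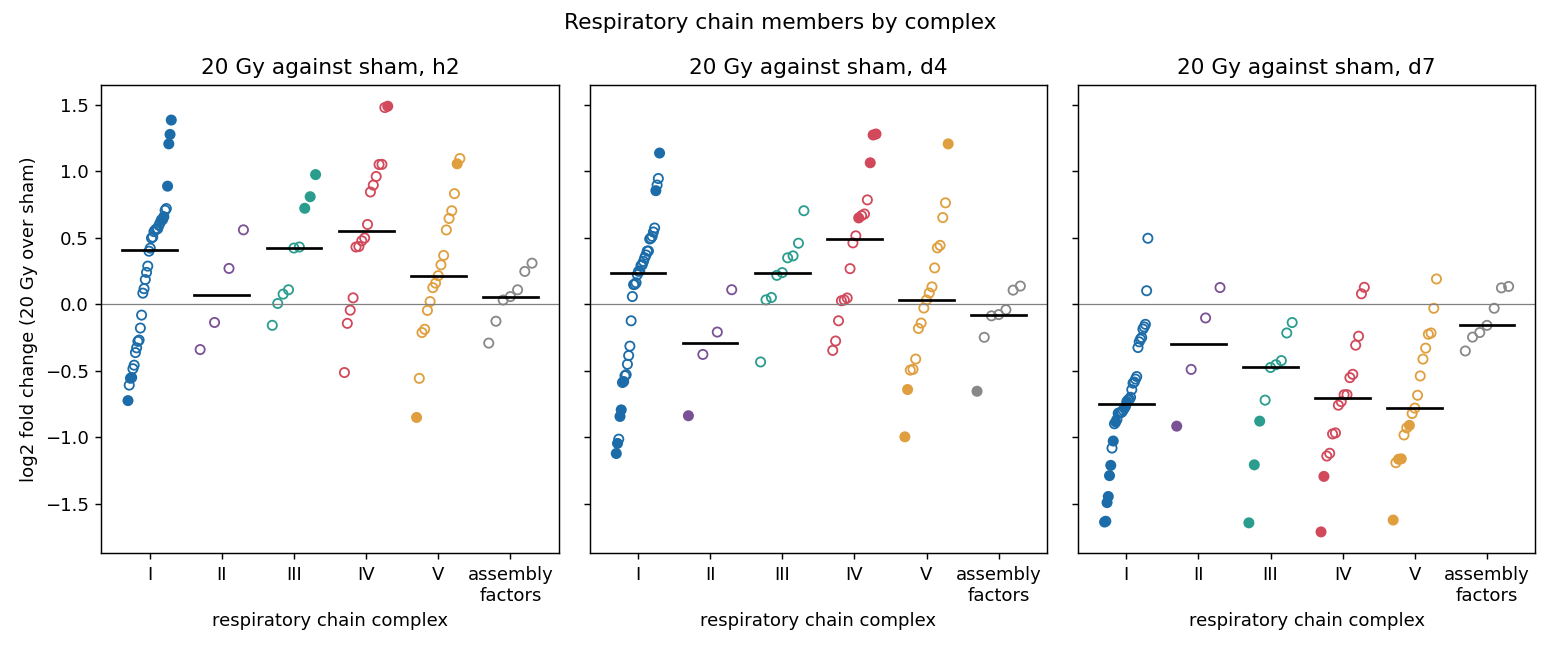
Change of each member after 20 Gy against sham at h2, d4 and d7 (log2 fold change), by complex. Points are genes, filled where the adjusted p was under 0.05, and bars mark the median of each complex. At d7 nearly all points lie below 0, with medians of -0.75 for complex I, -0.30 for complex II, -0.48 for complex III, -0.71 for complex IV and -0.78 for complex V.

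In complex I, 9 of 36 subunits fell at d7, 8 of the 29 accessory and 1 of the 7 core subunits, and the difference between these classes was not tested. Ndufb2 (chr6:39592565-39599843, GRCm38.p6), a small membrane subunit, read -0.06, -0.64 and -0.68 on the 20 Gy arrays and 0.34, 0.62, 1.64 and 2.12 on the sham arrays. It fell by 1.64 (SE 0.34, adjusted p = 0.000892). The 3 irradiated arrays lay below all 4 sham arrays, of which the pair from scanner 1 were the lower. Ndufa13, an accessory subunit also known as GRIM-19, read -0.25, -1.55 and -0.67 against 0.27, 0.30, 0.63 and 1.48 and fell by 1.49 (SE 0.295, adjusted p = 0.000527). Ndufs6, a zinc-binding subunit added late in assembly, read -0.34, -0.95 and -0.90 against 0.09, 0.21, 1.13 and 1.42. Its fall of 1.45 (SE 0.271) had the lowest adjusted p of the members at d7 (0.000151). Ndufc1 (-1.29), Ndufb3 (-1.21), Ndufa8 (-1.03), Ndufc2 (-0.89) and Ndufb7 (-0.73) also fell. The core subunit that fell was Ndufs8, an iron-sulfur subunit (-0.78), and it was well above background on 1 of the 3 arrays of 20 Gy. Ndufs1, the largest iron-sulfur subunit, changed by -0.15 (adjusted p = 0.925) and Ndufv1, the flavin subunit, by -0.19 (adjusted p = 0.909).

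Complex II had 1 called member at d7. Sdhd (chr9:50596340-50603849), a membrane anchor, read -0.45, -1.08 and -1.04 against -0.25, -0.14, 0.30 and 0.34 and fell by 0.92 (SE 0.285, adjusted p = 0.0478), just inside the threshold and outside it with the mouse as a block (0.0548). Its catalytic partner Sdha, the flavin subunit, was at 0.13 (adjusted p = 0.956), the iron-sulfur subunit Sdhb at -0.49 (0.659) and the other anchor Sdhc at -0.10 (0.983).

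Complexes III, IV and V had 3, 2 and 4 called members, all lower. In complex III, Uqcrb (chr13:66900576-66905350), which lies beside the ubiquinone site, fell by 1.64 (SE 0.398, adjusted p = 0.00948). It read 0.76, -1.21 and -0.68 on the irradiated arrays and 0.83, 1.10 and 1.87 on the 3 sham arrays with a value, so that M022 came close to the lowest sham array. Uqcrc2, a core protein without a redox centre, fell by 1.21 (adjusted p = 0.00452) and Uqcr11 by 0.88, while the other core protein Uqcrc1 was at -0.14 (0.957), the Rieske iron-sulfur protein Uqcrfs1 at -0.45 (0.768) and cytochrome c1, Cyc1, at -0.42 (0.842). In complex IV, Cox7b (chrX:106015700-106022450) read -0.06, -0.49 and -0.43 on the irradiated arrays against 0.31, 0.57, 2.22 and 2.44 on the sham arrays. It fell by 1.71 (SE 0.432, adjusted p = 0.00791), the lowest change among the members at d7. Cox5b, which binds zinc, fell by 1.29. Cox4i1, the common form of subunit 4, was at -0.68 (adjusted p = 0.483).

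In ATP synthase the called genes were Atp5mpl (-1.62), Atp5e (-1.17), Atp5j2 (-1.16) and Atp5h (-0.91). Atp5h, subunit d of the peripheral stalk, read 0.15, -0.25 and -0.05 on the irradiated arrays and 0.44, 0.78, 1.05 and 1.18 on the sham arrays (SE 0.182, adjusted p = 0.00038). Genes of the catalytic head did not pass the test, Atp5a1 (subunit alpha) at -0.23 and Atp5b (subunit beta) at 0.19. None of the 7 assembly factors Ndufaf1 to Ndufaf7 passed, and their median was -0.16.

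Within scanner 1, where the 3 arrays of 20 Gy and 2 sham arrays of d7 came from the same scan day and had similar median Cy5 intensities (22 to 26.5 against 23 and 23.5), 28 members (31.5%) fell and 1 (1.12%) rose, against 2.24% and 3.96% of all probes. The median over the members was -0.42. Of the 19 genes that fell on all arrays 13 were kept, and Ndufa8, Ndufs8, Uqcrc2, Cox5b, Atp5e and Atp5mpl were not. Ndufb2 was at -0.94 (adjusted p = 0.00608), Ndufs6 at -0.88 (0.00101), Uqcrb at -1.34 (0.0372), Cox7b at -0.76 (0.00742), Sdhd at -0.66 (0.0385) and Atp5h at -0.66 (0.0111). These sizes were smaller than on all arrays, where the pair of sham arrays from scanner 2 read higher. The count of 19 rested on few mice, being 4 without M023, 5 without M024, 7 without M003 and 9 without M002. With slide as a random block 12 fell. With scan day as a term of the model 0 members passed, with a median of -0.42 over the members, and with median centring of the arrays in place of loess 0 passed, with a median of -1.25.

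**Figure D2:**
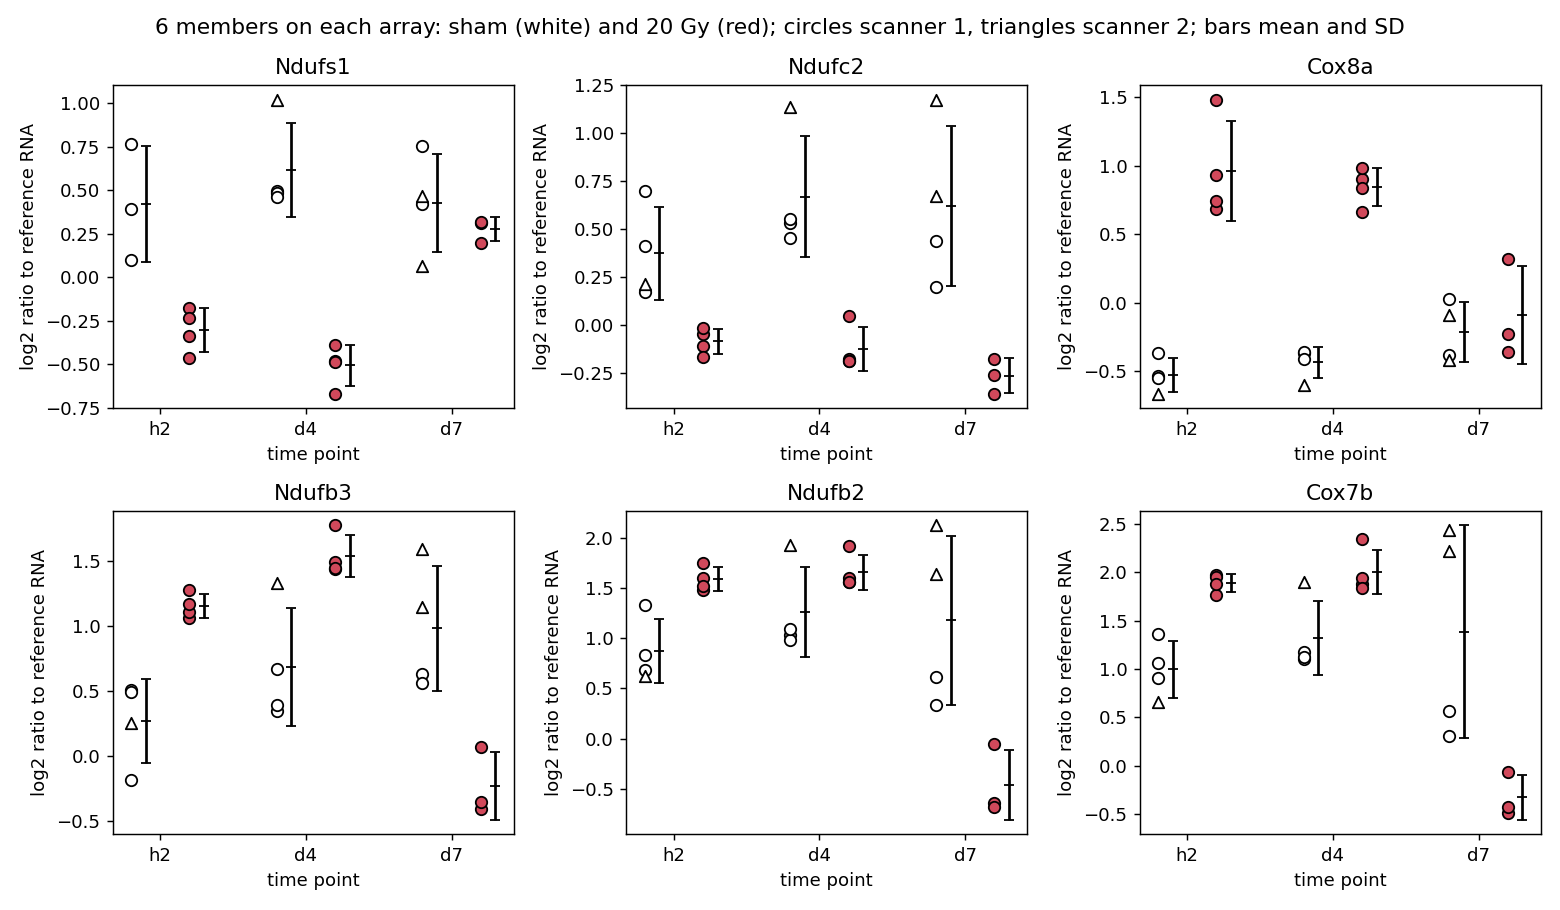
Level (log2 ratio of biopsy over reference) of Ndufs1, Ndufc2, Cox8a, Ndufb3, Ndufb2 and Cox7b on every sham and 20 Gy array at h2, d4 and d7. Points are single arrays, sham white and 20 Gy red, circles from scanner 1 and triangles from scanner 2, and bars are the mean and SD of a group. Cox8a separates at h2 and d4 and overlaps at d7, while all 20 Gy arrays of Ndufb2 and Cox7b lie below the sham arrays at d7.

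Markers of other cell types moved at d7 too. Of the sebaceous gland markers 4 of 5 tested fell and 0 rose, with a mean level of 0.56 to 1.10 on the 20 Gy arrays and of 3.09 to 3.93 on the sham arrays. Of fibroblast and matrix markers 3 of 9 fell (0.47 to 0.57 against 1.25 to 2.76), of adipocyte markers 2 of 11 (1.13 to 2.57 against 1.80 to 5.42), of brown adipocyte markers 1 of 4 (0.82 to 1.38 against 1.73 to 2.72), Cidea, which is also 1 of the 4 sebaceous gland markers that fell, and of epidermis markers 2 of 10 (3.33 to 3.56 against 3.49 to 5.61). Adipoq, the adipocyte hormone adiponectin, fell by 3.38 (adjusted p = 0.0289). Among leukocyte markers Cd74 fell by 2.30 (adjusted p = 0.00948), with a mean marker level of 0.225 to 0.599 against 0.154 to 1.331. Of the 18 skeletal muscle markers 0 passed in either direction (median -0.11), with Ckm, muscle creatine kinase, at -0.05 and Acta1, skeletal actin, at -0.32. The mean muscle level was 4.01 to 4.40 on the 20 Gy arrays and 3.62 to 6.17 on the sham arrays. The part of these cell types in the fall of the respiratory chain genes was not tested, and the markers were counted in the loess fit alone.

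At h2 after 20 Gy the members were split. Of the 89, 11 (12.4%) rose and 3 (3.37%) fell, against 13.9% and 9.95% of all probes, so that the share that rose at this threshold was close to the background. At an unadjusted p under 0.05, 28 members were higher and 4 lower, against 19.5% and 16.8% of all probes, and in 32 members all 20 Gy arrays lay above all sham arrays and in 10 below, against 17.5% and 15.4% of all probes. The median over the members was 0.31 and over all probes 0.00, and 64 members were above 0. The direction of the group depended on the scaling, with a median of -2.77 under median centring (all probes -0.56), -0.23 in the deposited normalized table and 0.10 in the log ratios of the scanner software (all probes -0.23). Within scanner 1, 37 members (41.6%) rose and 12 (13.5%) fell, against 26.3% and 27.9% of all probes, with a median of 0.26, and all 14 calls were kept. At h2 and d4 the 20 Gy arrays were dimmer than the sham arrays of scanner 1 (median Cy5 intensity 29 to 33 against 48 to 64), and the part of this in the result was not tested. All 4 arrays of 20 Gy lay on 1 slide at h2 and on another at d4, apart from the sham arrays. With slide as a random block (correlation 0.269), 3 members rose and 0 fell at h2, and 2 rose and 5 fell at d4.

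Cox8a, the common form of subunit 8 of complex IV (chr19:7215158-7217616), had the lowest adjusted p among the members at h2. It read 0.94, 1.48, 0.68 and 0.74 on the 20 Gy arrays and -0.54, -0.66, -0.36 and -0.55 on the sham arrays, and it rose by 1.49 (SE 0.203, adjusted p = 6.72e-08). The groups did not overlap, with the sham array of scanner 2 the lowest, and under median centring the change was -2.12. In complex I the accessory subunits Ndufa5 (1.38), Ndufc1 (1.28), Ndufa1 (1.21), Ndufb3 (0.89) and Ndufb7 (0.64) and the core subunit Ndufs3 (0.66) rose. Ndufa1 read between 1.69 and 2.08 on the 20 Gy arrays and between 0.30 and 0.74 on the sham arrays. Uqcrq (0.97), Uqcrc1 (0.81) and Uqcr11 (0.72) of complex III rose, as did Atp5g2 (1.06), which encodes subunit c of the ATP synthase ring. All 11 of these were below 0 under median centring, and so were all but Cox8a (0.03) and Ndufs3 (0.16) in the deposited table. The sister genes Atp5g1 and Atp5g3, which encode the same mature protein as Atp5g2, were at 0.64 (adjusted p = 0.0829) and 0.21 (0.788).

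The members that fell at h2 were Ndufs1 (-0.72), Ndufs8 (-0.55) and Atp5pb (-0.85), subunit b of the peripheral stalk. All 3 fell at d4 as well, and with slide as a random block none of the 3 passed at h2 (adjusted p = 0.0741, 0.126 and 0.0602). Ndufs1 (chr1:63143592-63176822) read -0.18, -0.47, -0.34 and -0.23 on the 20 Gy arrays at h2 and 0.39, 0.77 and 0.10 on the 3 sham arrays with a value, all of scanner 1 (SE 0.232, adjusted p = 0.0175). At d4 it read -0.67, -0.48, -0.49 and -0.39 against 0.50, 0.48 and 0.46 on scanner 1 and 1.02 on scanner 2, a fall of 1.12 (SE 0.214, adjusted p = 5.76e-05). At d7 its 20 Gy arrays read 0.20, 0.31 and 0.32 and lay within the sham range of 0.07 to 0.75. Ndufc2 (chr7:97400003-97407800), an accessory subunit, read -0.18, -0.19, -0.18 and 0.05 at d4 against 0.53, 0.55, 0.45 and 1.14 and fell by 0.79 (SE 0.232, adjusted p = 0.00713). Ndufs1 and Ndufc2 at d4 were the only member changes past the threshold in the same direction under all 12 settings of normalization, model and sham group compared, and none was at h2 or d7.

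**Figure D3:**
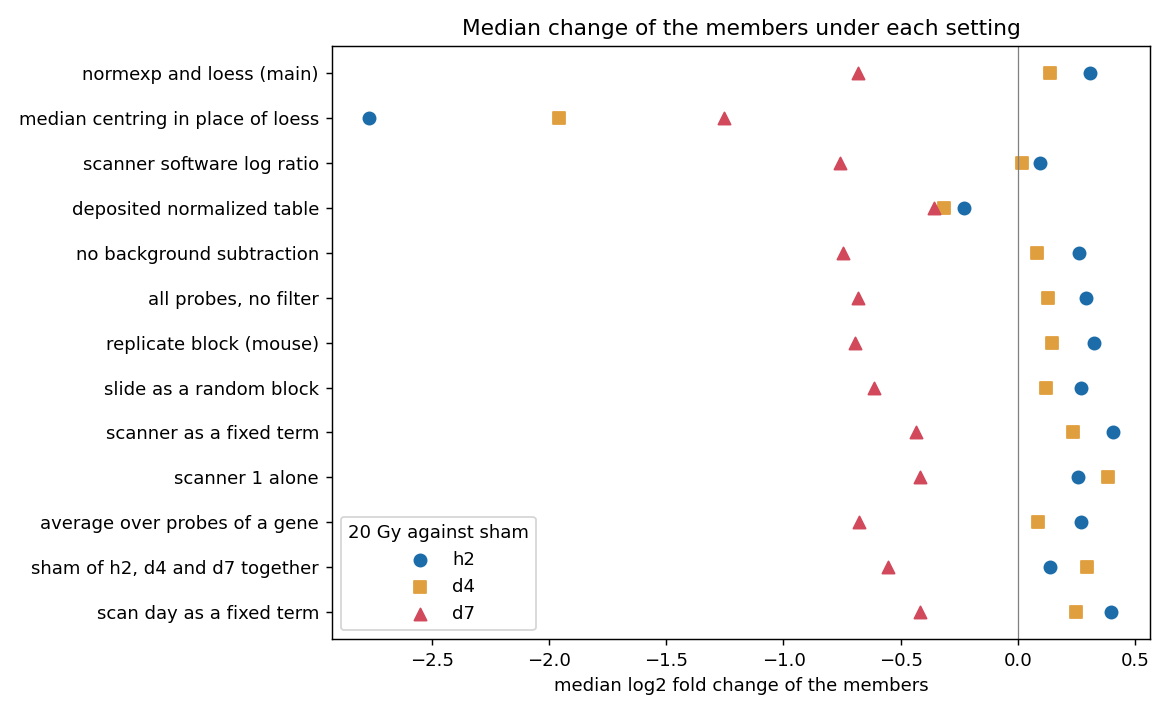
Median log2 fold change of the members after 20 Gy against sham at h2, d4 and d7 under each setting, 1 symbol per TP. The d7 medians lie below 0 under all 13 settings shown, while those of h2 and d4 lie on either side of 0.

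At d4, 7 members (7.87%) rose and 9 (10.1%) fell, both shares below those of all probes (16.7% and 15.6%). At an unadjusted p 12 were higher and 11 lower (21.5% and 21.4% of all probes), and 17 lay wholly above and 17 wholly below the sham arrays (21.6% and 20.4%). The median over the members was 0.14 (all probes -0.02), and it was -1.96 under median centring (all probes -0.41), -0.32 in the deposited table and 0.02 in the scanner software's ratios (all probes -0.20). Within scanner 1, 42 (47.2%) rose and 13 (14.6%) fell, against 28.8% and 31.4% of all probes, and all 16 calls were kept. Cox8a was again higher, at 0.90, 0.98, 0.84 and 0.66 against -0.37, -0.60, -0.36 and -0.41, a rise of 1.28 (adjusted p = 1.83e-06) that was -0.99 under median centring. With the mouse as a block Atp5mpl, at an adjusted p of 0.0535 there, no longer passed. The other genes that rose were Cox7c (1.27), Cox7a2 (1.06) and Cox6a1 (0.65) of complex IV, Ndufa1 (1.14) and Ndufb3 (0.85) of complex I and Atp5mpl (1.21) of complex V, and under median centring Cox7c (-0.57), Cox7a2 (-1.10), Cox6a1 (-1.68), Ndufa1 (-1.07), Ndufb3 (-1.29) and Atp5mpl (-1.26) were below 0. In the deposited table Ndufa1 (-0.78), Cox7a2 (-0.59), Cox6a1 (-0.59), Ndufb3 (-0.42) and Atp5mpl (-0.35) were below 0 as well. Cox7c read -0.40, -0.77, -0.62 and -0.36 on the 20 Gy arrays and -1.70, -2.72, -2.33 and, on the sham array of scanner 2, -0.49, which lay within the irradiated range.

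Markers of cell types moved at h2 and d4 as well. Of the 10 epidermis markers 5 rose and 2 fell at h2, and 5 rose and 3 fell at d4, with Krt5, a basal keratin, at 2.90 and 3.08 and Trp63, a basal transcription factor, at -2.77 and -2.50. Their mean level was 4.05 to 5.03 on the 20 Gy arrays and 4.08 to 5.11 on the sham arrays at h2, and 4.86 to 5.24 against 4.90 to 5.33 at d4. Against 13.9% of all probes that rose and 9.95% that fell at h2, and 16.7% and 15.6% at d4, of the 18 muscle markers 5 rose and 0 fell at h2, and 3 rose and 3 fell at d4, with Myh4, a fast myosin, at 2.98 and 2.37, and their mean level was 5.06 to 6.14 against 4.40 to 5.92 and 5.20 to 6.30 against 5.43 to 6.57. Of the 6 endothelium markers 1 fell at h2 and 4 fell at d4 (0.33 to 1.05 against 1.32 to 2.48 at h2, and 0.66 to 1.06 against 2.34 to 3.64 at d4), and of the 10 hair follicle markers 3 fell at h2, where the 20 Gy arrays (0.01 to 0.33) lay within the sham range (-0.02 to 6.36, mean 1.80). At d4, 4 of 12 leukocyte markers fell (mean level 0.31 to 0.51 against 0.75 to 0.98), 2 of 5 erythroid markers (1.03 to 1.24 against 2.11 to 2.53) and 2 of 11 adipocyte markers (2.42 to 3.94 against 3.75 to 5.69), and 0 of these rose. The part of these cell types in the changes of the members was not tested. The markers were counted in the loess fit alone, and their dependence on scaling, slide and scanner was not examined.

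Among the genes that fell at d4 were the core subunits Ndufs1, Ndufv2 (-0.84) and Ndufs8 (-0.58), the accessory subunit Ndufa10 (-1.05), Sdhb (-0.84), Atp5pb (-0.997), Atp5l (-0.64) and the assembly factor Ndufaf1 (-0.65). Ndufa10 read -0.72, -0.61, -0.57 and -0.58 against -0.07, 0.37, 0.29 and, on scanner 2, 1.13. The core subunits of complex I as a class had a median of -0.28 at h2, -0.58 at d4 and -0.25 at d7, and the accessory subunits 0.50, 0.30 and -0.81. Within scanner 1 the medians were -0.26, -0.43 and -0.15 for the core and 0.37, 0.48 and -0.57 for the accessory subunits, and this contrast between the classes was not tested.

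The 20 Gy effect was also compared between d7 and h2. Tested as the difference of both effects in the model, 29 members (32.6%) were lower at d7 than at h2 and 0 were higher, against 4.83% and 2.99% of all probes, with a median difference of -1 over the members and 0.03 over all probes. Ndufb3, Ndufb7, Ndufc1 and Uqcr11 rose at h2 and fell at d7. Ndufb3 (chr1:58586397-58595964) read 1.06, 1.11, 1.28 and 1.17 on the 20 Gy arrays at h2, above sham at 0.51, 0.26, 0.49 and -0.18, and at d7 it read 0.07, -0.40 and -0.35, below sham at 0.56, 0.63, 1.15 and 1.59. Within scanner 1, where the TPs were scanned on different days, 46 members (51.7%) had a lower and 4 (4.49%) a higher effect at d7, against 17.1% and 18.1% of all probes, and 27 of the 29 were kept. Under median centring the median difference turned to 1.499, and in the deposited table no member (0 of 89) differed, with a median of -0.13. Without M023 13 members differed, and without M002 19. With slide as a random block 17 differed, with scan day as a term 17 and under median centring 18, counted in either direction. Within scanner 1 the median difference was -0.65.

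Against 6 Gy, the highest sublethal dose, 35 members (39.3%) were lower at d7 after 20 Gy and 0 were higher, against 1.81% and 4.61% of all probes, with a median of -0.93. Atp5mpl (-2.85), Cox7b (-2.61), Cox5b (-2.59, adjusted p = 0.000101) and Ndufb2 (-2.41, adjusted p = 3.05e-05) were among them. The 2 arrays of 6 Gy at d7 were read on scanner 2 and the 20 Gy arrays on scanner 1. With scanner as a term, which rests on the groups read on both scanners, 24 members differed, with a median of -0.72. Without M018 there were 17 such members, without M023 20 and without M020 22. Under median centring 4 members differed, and with scan day as a term 1. Of the sebaceous gland markers 4 of 5 fell in this comparison (median -3.52), of adipocyte markers 4 of 11 (-3.17), of brown adipocyte markers 1 of 4 (-1.57), of epidermis markers 2 of 10 (-1.72), of muscle markers 1 of 18 (-0.94) and of fibroblast markers 1 of 9, with 1 that rose (-0.94), and their part in the result was not tested. At h2, 6 members (6.74%) were higher and 8 (8.99%) lower after 20 Gy than after 6 Gy (9% and 3.93% of all probes), with Cox8a at 1.72 (adjusted p = 2e-09), Cox4i1 at 1.03 and Cox6a1 at 0.94 among the higher and Atp5pb at -1.29, Ndufs4 at -1.28 and Ndufc2 at -0.96 among the lower. At d4 there were 6 (6.74%) higher and 4 (4.49%) lower (9.98% and 4.61% of all probes), with Cox8a at 1.28 and Ndufa1 at 1.13 higher, and Atp5pb at -0.94 and Ndufs1 at -0.62 lower. At h2 and at d4, 3 of the 4 arrays of 6 Gy came from scanner 2 and all of 20 Gy from scanner 1. With slide as a random block 4 members differed at h2 and 1 at d4, and with scanner as a term 20 differed at d4. Leaving out each mouse in turn gave 7 to 15 members at h2 and 4 to 13 at d4. The part of cell types in the results of h2 and d4 was not tested. Within scanner 1, where 6 Gy had 1 array at each of these TPs, taken to vary like the other groups, 36 and 46 differed, so that this fit gives no replicate check of the 6 Gy side.

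Sublethal exposures gave few calls. Only at d4 after 3 Gy did members pass the test, with 1 (1.12%) higher and 3 (3.37%) lower against 7.81% and 9.44% of all probes. Cox7c rose by 1.20 (SE 0.41, adjusted p = 0.0374), and Cox6b2, a form of subunit 6b known from testis, fell by 0.92 (SE 0.25, adjusted p = 0.0166), with 0.15 in the deposited table. Ndufv1 fell by 0.64 (SE 0.221, adjusted p = 0.0394) and Ndufs1 by 0.61 (SE 0.203, adjusted p = 0.0334). At d4, 4 of the 5 arrays of 3 Gy came from scanner 2 and 3 of the 4 sham arrays from scanner 1. With scanner as a term none of these 4 passed (adjusted p = 0.198 for Cox7c, 0.0952 for Cox6b2, 0.126 for Ndufv1 and 0.108 for Ndufs1). Of the 6 endothelium markers 5 fell there and 0 rose (median -2.38). Of the 5 erythroid markers 2 fell, the globin genes Hba-a1 (-3.66) and Hbb-bt (-4.69), with a mean level of 0.06 to 2.06 against 2.11 to 2.53 on the sham arrays, and of the 12 leukocyte markers 1 rose and 2 fell. Of the 18 skeletal muscle markers 1 fell, Ryr1 (-3.29), with a median of -1.09 and a mean level of 3.22 to 5.85 against 5.43 to 6.57. Trp63 of epidermis (-2.91) and Cpt1b, listed with brown adipocytes and with fatty acid oxidation (-1.88), fell too, and the part of these cell types in the member changes was not tested. Without any of the sham mice M001, M004 and M005 or the 3 Gy mice M012 and M014, 0 of these 4 passed, and without the sham mouse M002 there were 6 higher and 21 lower over all sublethal comparisons. In the other 14 comparisons of 1, 3 and 6 Gy with sham 0 members passed in limma. The share of all probes called in either direction there was 0% for 6 Gy at h2, 0.0627% at d4, 0.0099% at d7, 0.00333% at d21 and 0.0693% at d28. For 3 Gy it was 0% at h2, 0% at d7, 0.00667% at d21 and 0.0166% at d28, and for 1 Gy 0% at h2, 0% at d4, 0% at d7, 0.00334% at d21 and 0.0297% at d28.

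The member medians of the sublethal groups differed in sign between TPs and between settings, and a change with the TP was not tested. The mean sham median itself was 0.25, 0.60, 0.46, 0.42 and 0.89 from h2 to d28, with a pooled SD of 0.30 between arrays within groups. In the order 6, 3 and 1 Gy the medians against sham were 0.37, 0.23 and 0.56 at h2. At an unadjusted p under 0.05 there were 18, 9 and 43 members higher and 0 lower, where 2.34%, 6.37% and 5.45% of all probes were higher and 4.07%, 6.21% and 6.24% lower. Under median centring these 3 medians were -0.73, -0.13 and -0.05, in the deposited table they were 0.18, -0.10 and 0.22, and within scanner 1, with 1 array per dose, 0.08, 0.08 and 0.09. At d4 the medians were -0.13, -0.06 and -0.02, with 1, 3 and 1 members higher and 1, 7 and 1 lower at an unadjusted p, against 7.44%, 14.5% and 2.81% of all probes higher and 10.1%, 20.3% and 5.24% lower. Their signs depended on the setting. That of 1 Gy turned under median centring (0.23), without background subtraction (0.09), with slide as a random block (0.01), with the sham arrays of h2, d4 and d7 together (0.12), in the scanner software's ratios (0.12), in the deposited table (at 0.06) and within scanner 1 (0.06). That of 3 Gy turned without background subtraction (0.11), with these sham arrays together (0.06), in the scanner software's ratios (0.10) and within scanner 1 (0.17), and that of 6 Gy in the deposited table (at 0.001). At d7 the medians were 0.36, 0.23 and 0.16, with 8, 7 and 4 members higher and 1, 0 and 0 lower at an unadjusted p, against 0.564%, 5.89% and 1.39% of all probes higher and 1.18%, 3.81% and 1.2% lower. That of 3 Gy was -0.06 in the deposited table and that of 1 Gy -0.07 with scan day as a term. At d28 they were -0.40, -0.61 and -0.29, with 15, 30 and 15 members lower and 0 higher at an unadjusted p, against 8.32%, 4.39% and 2.97% of all probes lower and 5.79%, 3.87% and 2.61% higher. None passed the adjusted threshold (lowest adjusted p 0.149, 0.205 and 0.556), and under median centring the median of 1 Gy turned to 0.37. At d21 the medians were -0.05, -0.16 and -0.26 over the 76 members that could be fitted, with 0, 0 and 1 higher and 0, 4 and 3 lower at an unadjusted p, against 2.55%, 3.3% and 2.18% of all probes higher and 1.89%, 3.56% and 1.75% lower. The spots of the other 13 were flagged on both sham arrays, and the median of 6 Gy was 0.15 in the deposited table and 0.11 with slide as a random block. The sham medians behind d28 were 0.67 and 1.10, from 2 arrays. The 3 sublethal doses share the sham arrays of each TP, so that their medians do not stand apart from each other as evidence.

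**Figure D4:**
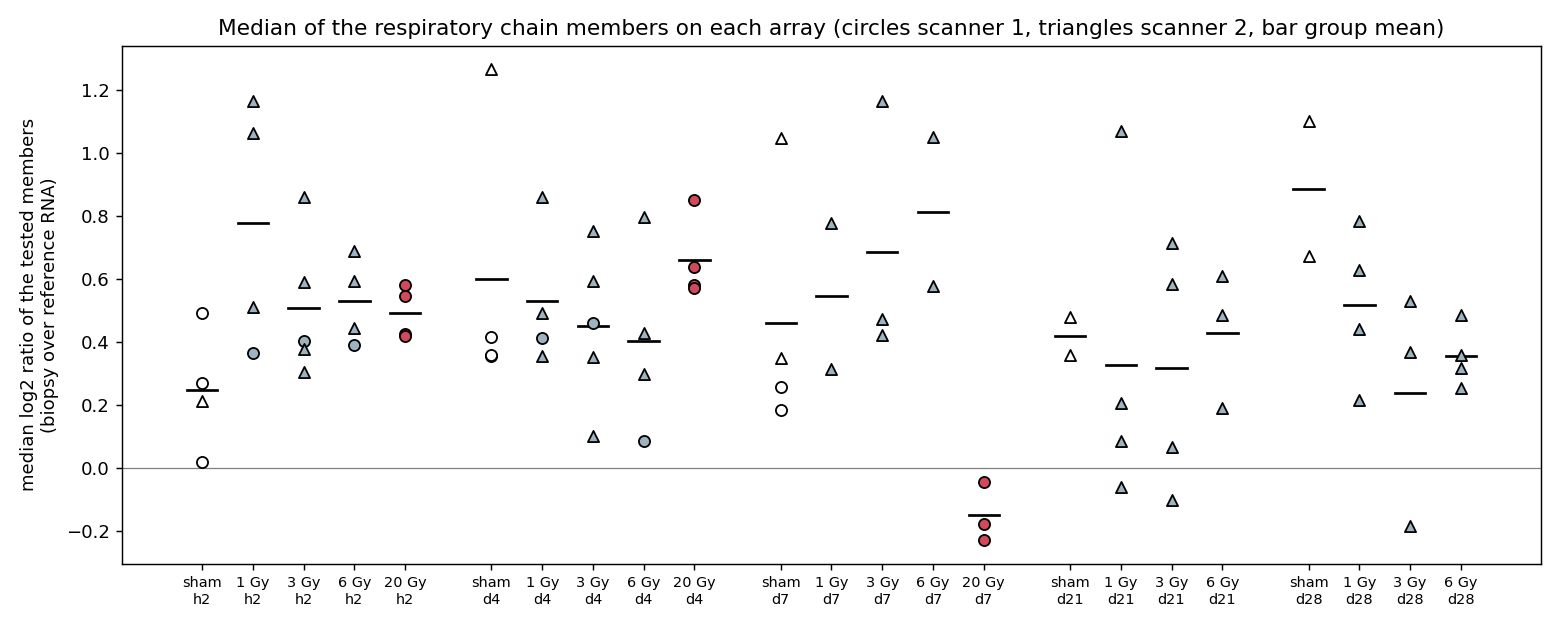
Median level of the members (log2 ratio of biopsy over reference) on each of the 82 arrays, by dose and TP. Points are arrays, circles from scanner 1 and triangles from scanner 2, and bars are group means. The 3 arrays of 20 Gy at d7 lie between -0.23 and -0.04, below the sham arrays of d7 at 0.19 to 1.05.

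Complex IV has forms that striated muscle uses in place of the common ones, Cox6a2, Cox7a1 and Cox8b for Cox6a1, Cox7a2 and Cox8a. The muscle forms had high levels in these biopsies, with mouse means of 4.96 to 7.94 for Cox8b, 2.52 to 4.38 for Cox7a1 and 2.76 to 4.65 for Cox6a2. None passed the test after 20 Gy on all arrays. Cox8b was at 1.05, 0.67 and -0.53 at h2, d4 and d7, Cox7a1 at 1.48, 0.78 and -0.97, and Cox6a2 at 0.96, 0.05 and 0.08, with standard errors of 0.78 to 1.04. Within scanner 1, Cox7a1 rose by 1.13 at h2 (adjusted p = 0.00165) and 1.30 at d4 (0.000439) and fell by 1.13 at d7 (0.0418), and Cox8b (1.08, adjusted p = 0.0309) and Cox6a2 (0.63, 0.0448) rose at d4. Over the 24 mouse means, each muscle form followed the mean level of the 18 skeletal muscle markers (permutation tests with 100000 resamples, two-sided, 6 relations). Their relation to markers of other cell types was not examined.

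Cox8b had Pearson's r = 0.821 (p = 1e-05, the smallest these resamples can give, adjusted p = 6e-05) and Spearman's rho = 0.802 (permutation p = 4e-05, adjusted p = 0.00024), with r = 0.76 without the 2 farthest mice, 0.808 among the 10 mice read on scanner 1 and 0.822 among the 14 on scanner 2. Cox7a1 had r = 0.585 (permutation p = 0.00269, adjusted p = 0.00786) and rho = 0.613 (permutation p = 0.00162, adjusted p = 0.00324), with r = 0.637 without the 2 farthest mice and 0.392 and 0.695 within the scanners. Cox6a2 had r = 0.567 (permutation p = 0.00393, adjusted p = 0.00786) and rho = 0.676 (permutation p = 4e-04, adjusted p = 0.0012), with r = 0.557 without those mice and 0.405 and 0.603 within the scanners. For the common forms Cox6a1, Cox7a2 and Cox8a, r was -0.08, 0.13 and -0.16, with permutation p of 0.707, 0.535 and 0.459. Within scanner 1 and scanner 2 it was -0.02 and 0.01 for Cox6a1, 0.10 and -0.12 for Cox7a2, and 0.26 and -0.59 for Cox8a, whose sign thus differed between the scanners. Cox8b also had the widest range of group means of all members, 6.41, from 2.53 at d21 after 1 Gy to 8.94 in sham at d28, followed by Atp5mpl at 3.10. Ndufaf3 (0.56) and Ndufaf5 (0.58) had the narrowest.

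**Figure D5:**
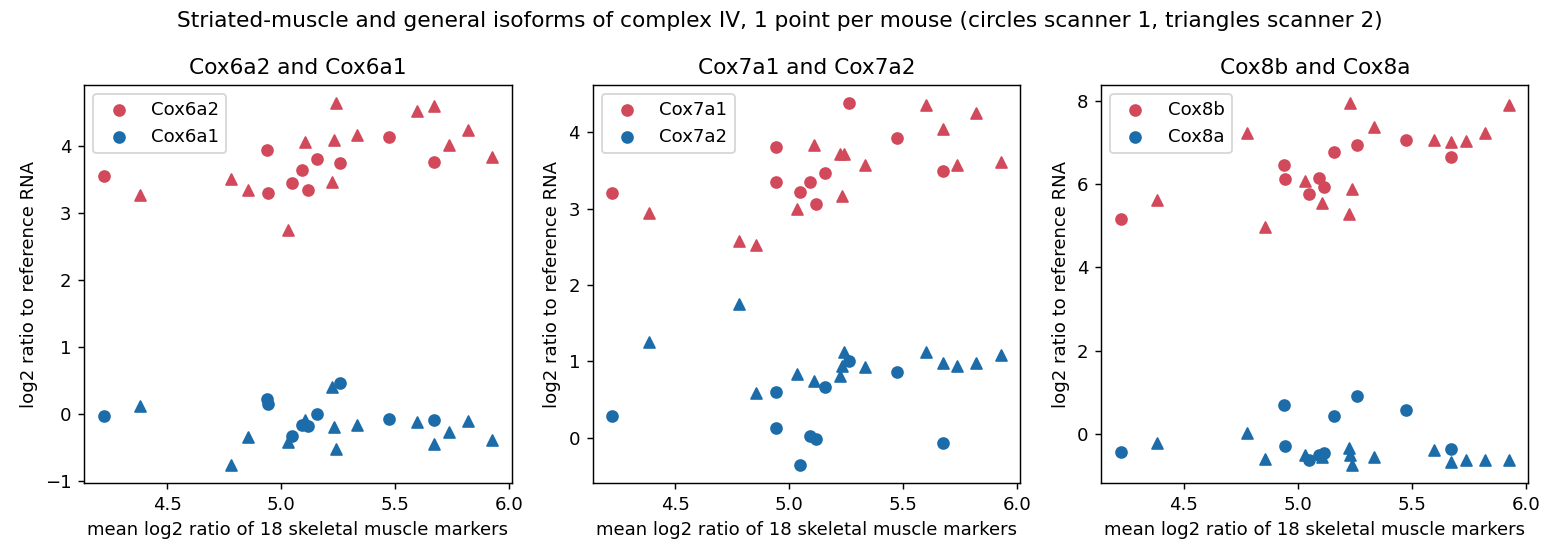
Mean level of the muscle forms Cox6a2, Cox7a1 and Cox8b and of the common forms Cox6a1, Cox7a2 and Cox8a in each of 24 mice (log2 ratio of biopsy over reference) against the mean level of 18 skeletal muscle markers. Points are mice, muscle forms red and common forms blue, circles from scanner 1 and triangles from scanner 2. The muscle forms rise with the markers (r of 0.567, 0.585 and 0.821), and over all mice the common forms have r between -0.16 and 0.13.

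Genes that work beside the respiratory chain were counted in lists, in the loess fit alone. The dependence of these lists and of the cell type markers on scaling, slide and scanner was not examined. The background was 13.9% higher and 9.95% lower of all probes at h2, 16.7% and 15.6% at d4, and 3.34% and 1.1% at d7. Of 42 tested assembly factors of the complexes, 7 of them members, 6 fell and 0 rose at d7 (median -0.19), with Acad9 (-1.31) and Cox20 (-1.27), needed to build complexes I and IV, and Sdhaf4 (-1.002), needed for complex II, falling most. At h2, 2 rose and 6 fell, and at d4, 4 rose and 5 fell, with Surf1, a complex IV factor, at -0.67 and -0.77, and Ecsit, a complex I factor, at 1.18 and 0.80. Of 17 genes of the TCA cycle and pyruvate dehydrogenase, 4 rose and 4 fell at h2 and 1 rose and 8 fell at d4, while 0 passed at d7 (median -0.06). Pdhb, the beta subunit of pyruvate dehydrogenase E1, fell by 1.20 at h2 and 1.71 at d4, and Idh3a, of NAD-dependent isocitrate dehydrogenase, by 1.28 and 1.499.

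Of 15 fatty acid oxidation genes 7, 6 and 2 fell at h2, d4 and d7 and 0 rose, with Acadm, medium-chain acyl-CoA dehydrogenase, at -1.11 and -1.69 at h2 and d4 and the thiolase Acaa2 at -1.14 at d7. Of 16 electron carriers and transporters 3 and 5 fell at h2 and d4 and 0 passed at d7, with the phosphate carrier Slc25a3 at -0.99 and -1.67. Of 18 glycolysis genes 5, 3 and 1 rose and 0 fell, with Eno1, enolase, at 2.41 at h2. Of 18 regulators of mitochondrial biogenesis 1 rose and 2 fell at h2, 1 rose and 4 fell at d4, and 0 passed at d7 (median 0.02).

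Among 18 mitochondrial stress and antioxidant genes 5 rose and 2 fell at h2, 2 rose and 3 fell at d4, and 1 rose and 1 fell at d7. Hspa9, the mitochondrial Hsp70 chaperone, was at -1.31, -1.48 and 1.22, and Gdf15, a secreted stress cytokine, rose by 1.95 and 2.20 at h2 and d4. Among 18 p53 targets 4, 8 and 2 rose and 2, 2 and 0 fell, with Sesn2 at 2.72 and the cell cycle inhibitor Cdkn1a at 2.55 at d4. These lists were not tested against each other or against the members. The 13 subunits encoded in mitochondrial DNA had no named probe here and were not analysed.

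For 19 members with several probes the signs of the change agreed among their probes in 13 at h2, 12 at d4 and 16 at d7, and no gene had calls in opposite directions. Sdha was at 0.56 (adjusted p = 0.0908), 0.11 and 0.13 by its brightest probe, while another of its probes was at -0.89 at h2 and fell by 1.59 at d4. Atp5b was at -0.05 at h2 by its brightest probe, and another probe rose by 1.37. Ndufab1, the mitochondrial acyl carrier protein, was at 0.19, 0.06 and -0.81 (adjusted p = 0.0744), Ndufa4 at -0.14, -0.12 and -0.76, and Cox6b1 at 0.50, 0.46 and -1.12 (adjusted p = 0.248) at h2, d4 and d7. Cox7a2l was at -0.04, -0.28 and -0.55 (adjusted p = 0.25).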

How the data were processed

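Biopsy RNA (Cy5) and reference RNA (Cy3) of 82 arrays were compared, without dye swap. The authors scanned the arrays and deposited, per spot, median intensity and background intensity in both channels, not normalized, and a log10 ratio made by Agilent Feature Extraction (11.0.1.1 on scanner 1 and 10.10.1.1 on scanner 2). The authors also deposited log2 values, normalized, made by steps the sources used here do not give. Those values were set against the scanner values (r of 0.583 to 0.977 per array with the loess ratios, column medians of 0.00146 to 0.0478). The paper and the labels name different labeling kits.

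From there, R 4.3.3 and limma 3.58.1 were used, with statmod 1.5.0 and data.table (1.17.8): normexp with an offset of 50, loess within arrays, removal of control spots and of spots with outlier flags (25056 values, 0.704%), averaging of spots of the same probe (41174 probes), and 1 linear model with a mean for each of the 23 groups over the 30294 probes tested (lmFit, eBayes). A call is a Benjamini-Hochberg adjusted p under 0.05 over all of them. Symbols came from RefSeq (GRCm38.p6). Repeated biopsies of a mouse are separate arrays in this model, and the mouse as a block was an alternative. p-values measure the spread between these arrays, and their number limits the precision.

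Named were, per complex and TP after 20 Gy, up to 3 called members with the largest rise and 3 with the largest fall, the called members of other doses, a preset set of catalytic subunits and tissue forms, and the widest and narrowest members, and other called members were added after their values were seen. For the other lists, up to 3 called genes were named. Alternatives were the filter, background, scaling, deposited table, fold threshold, mouse, slide and scanner, leaving out each mouse, and scan day, which was chosen after seeing the data. Members and lists were chosen with earlier results of these data known. The values of 1 member are not reported here. Motif letters were set after a first search had been seen. The model was tested on simulated data.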

Additional observations from a re-analysis of the deposited data

Results flagged for a closer look

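Of 96 sets of arrays examined, a value stood apart from the rest of its group in 21. The sets share the same few arrays, so that this count cannot be set against the 1 in 20 that chance gives for a single set. Most of the 21 values were of the sham mouse M002 at d4, the only sham array of d4 read on scanner 2. Its median over the members was 1.27, against 0.356 to 0.418 on the other three, and it read 1.02 for Ndufs1, 1.14 for Ndufc2, 1.13 for Atp5pb, 2.20 for Ndufa5, 0.082 for Atp5g2, 1.69 for Uqcrq, 1.93 for Ndufb2, 1.90 for Cox7b, 0.57 for Sdhd and 5.82 for Cox6a2. At d7 it read 7.91 for Cox8b. After 20 Gy, M024 at d4 stood above the other three for Ndufc2 (0.047), Atp5pb (-0.42), Ndufb2 (1.91), Uqcrb (1.82) and Ndufb3 (1.78) and differed for Cox6a2 (4.93). M022 at h2 stood above the others for Atp5g2 (0.50) and Uqcrq (1.78), and the sham mouse M005 at h2 below them for Ndufa1 (0.30).

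The effect of 20 Gy was lower at d7 than at h2 in 29 members (32.6%) and higher in 0, against 4.83% and 2.99% of all probes. This depended on the processing. With median centring the median difference over the members turned to 1.499, and 0 members differed in the deposited normalized values. Among the 29 were the 4 called in opposite directions at these TPs, with a d7 effect minus h2 effect of -2.10 for Ndufb3, -1.37 for Ndufb7, -2.56 for Ndufc1 and -1.60 for Uqcr11. These 4 were picked by their opposite calls, which already sets the sign of their differences.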

How the results depend on the processing

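The processing changed the group's direction at h2 and d4. It also changed the number of calls at d7 and in the comparisons of d7 with h2 and of 20 Gy with 6 Gy. The members' median at d7 stayed below 0 under every setting, at -1.25 with median centring and -0.36 in the deposited table. At h2 and d4 it was -2.77 and -1.96 with median centring and -0.23 and -0.32 in the deposited table. The difference of the 20 Gy effect between d7 and h2 had a median of 1.499 with median centring, -0.13 in the deposited table and -0.65 on scanner 1 alone, and 20 Gy against 6 Gy at d7 had one of -1.23, -0.48 in the deposited table and -0.56 with scan day as a term. The causes were not tested. The share of probes well above background was 38.1% to 50.4% on the 20 Gy arrays and 44% to 65.2% on the sham arrays. It was 33.1% to 67.5% at 1 Gy, 45.8% to 71.3% at 3 Gy and 47.3% to 70.2% at 6 Gy. The part of this in the results was not tested.

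Counts of members past the threshold are given in the order rose at h2 (11), fell at h2 (3), rose at d4 (7), fell at d4 (9), fell at d7 (19), rose and fell after sublethal doses (1 and 3), differed between 20 and 6 Gy at h2 (14), d4 (10) and d7 (35), and differed between d7 and h2 (29), and only those that moved by over 1.5 times are printed. Shares of all probes were not counted under the settings below, except for the effects of 20 Gy against sham within scanner 1. With median centring the counts were 0, 86, 0, 67, 0, 0, 0, 59, 68, 4 and 18. The median change of all probes after 20 Gy was then -0.564 at h2 and -0.415 at d4. In the deposited table they were 4, 27, 2, 30, 34, 5, 9, 51 and 36 up to the comparison with 6 Gy at d4 and 0 for the last, and 3 rose at d7. In the scanner software's ratios 9 fell at h2, 14 at d4 and 36 at d7, 0 rose and 0 fell after sublethal doses, and 26, 18 and 55 differed from 6 Gy. Without background subtraction 6 fell at h2, 30 at d7, and 0 rose and 0 fell after sublethal doses. With a fold change of at least 2, 5 rose and 0 fell at h2, 2 fell at d4, 0 fell after sublethal doses, and 4 and 3 differed from 6 Gy at h2 and d4. On scanner 1 alone 37 rose and 12 fell at h2, 42 rose at d4, 1 rose at d7, and 50 differed between d7 and h2, while 21 rose and 11 fell after sublethal doses and 36 and 46 differed from 6 Gy, where each sublethal group had 1 array, assumed to vary like the other groups. With scanner as a term 24 rose at h2, 0 rose and 1 fell after sublethal doses, and 20 differed from 6 Gy at d4. With scan day as a term, chosen after seeing the data, 18 rose at h2, 0 fell at d7, 0 rose and 1 fell after sublethal doses, 22 and 1 differed from 6 Gy at d4 and d7 and 17 between d7 and h2. With slide as a random block (correlation 0.269) 3 rose and 0 fell at h2, 2 rose and 5 fell at d4, 12 fell at d7, 0 rose after sublethal doses, 4 and 1 differed from 6 Gy at h2 and d4 and 17 between d7 and h2. With the sham arrays of h2, d4 and d7 together 9 fell at h2, 21 rose at d4, 33 fell at d7 and 0 fell after sublethal doses.

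With the replicate block, the mouse from which repeated biopsies came (consensus correlation 0.119), 12 rose and 3 fell at h2, 6 rose and 9 fell at d4, 18 fell at d7, and 36 differed from 6 Gy at d7 and 32 between d7 and h2. The pairing comes from the labels, which name the mouse of each biopsy. Of the named changes it ended those of Sdhd at d7 and Atp5mpl at d4 and no other call.

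Leaving out each mouse in turn gave 7 to 15 and 0 to 4 members at h2 that rose and fell, 2 to 13 and 6 to 10 at d4, 0 and 4 to 22 at d7, 0 to 6 and 0 to 21 after sublethal doses, 7 to 15, 4 to 13 and 17 to 41 that differed from 6 Gy, and 13 to 31 between d7 and h2. Of the 39 changes named by the rule, 12 kept their call without every mouse in turn, and 27 lost it without at least 1 mouse, with 0 turned.

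Of these 39, the following turned with median centring: at h2 Ndufa5 (-2.00), Ndufc1 (-1.99), Ndufa1 (-2.17), Uqcrq (-2.63), Uqcrc1 (-2.44), Uqcr11 (-2.68), Cox8a (-2.12) and Atp5g2 (-2.34), and at d4 Ndufa1 (-1.07), Ndufb3 (-1.29), Cox8a (-0.99), Cox7c (-0.57), Cox7a2 (-1.10) and Atp5mpl (-1.26). In the deposited table Ndufa5 (-0.42), Ndufc1 (-0.63), Ndufa1 (-0.83), Uqcrq (-0.31), Uqcrc1 (-0.35), Uqcr11 (-0.45) and Atp5g2 (-0.054) turned at h2, Ndufa1 (-0.78), Ndufb3 (-0.42), Cox7a2 (-0.59) and Atp5mpl (-0.35) at d4, and Cox6b2 (0.15) at d4 after 3 Gy. Of the called members named outside the rule, Ndufb3 (-2.27), Ndufb7 (-2.68) and Ndufs3 (-2.33) at h2 and Cox6a1 (-1.68) at d4 turned with median centring, and Ndufb3 (-0.40), Ndufb7 (-0.31) and Cox6a1 (-0.59) in the deposited table.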
